A study of Solanum lycopersicum with 6 samples.

Results

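The gene models examined here lie in the middle of tomato chromosome 4, in the identifier range from Solyc04g018000 to Solyc04g051999. They were chosen by identifier and by measured level: a model was kept when its mean reached 1 FPKM (fragments scaled for the length of the gene and the depth of the library) in the 3 WT libraries or in the 3 slgols2 libraries, and the 2 loci Solyc04g040190 and Solyc04g050930 were excepted. Of the 35768 gene models in the table, 630 fell in the range and 181 were members. RNA was sequenced from the shoulder of the fruit wall, the part near the stalk, of Solanum lycopersicum cultivar Ailsa Craig at 30 DPA, days post anthesis. One group of 3 libraries was wild type (WT). The other group of 3 carried slgols2, a knock-out made with CRISPR-Cas9 gene editing. GolS commonly stands for galactinol synthase, an enzyme of raffinose sugar synthesis. Both groups came from greenhouse plants under the same long-day regime. How many edited lines or separate plants stood behind the libraries is not given in the sources used here, so the spread between libraries may be technical.

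Tomato gene identifiers carry the chromosome number and then a number that follows the order of the genes along it. In tomato chromosomes the gene-dense ends flank a gene-poor, repeat-rich middle in which recombination is rare. A gene model is a predicted transcription unit, and its version suffix goes up when the prediction is revised. None of the identifiers could be paired with a gene name or description in the sources used here, so no role is given to any member, and neither the edited gene nor markers of the fruit wall were checked.

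The recovered depth lay between 15593387 and 17941974 fragments per library. Replicate 3 of slgols2 stood apart from the other slgols2 libraries. Its log2(FPKM + 1) values correlated at 0.849 and 0.869 with theirs across genes, which are not independent replicates, and at 0.878 to 0.903 with the WT libraries, whereas slgols2 replicates 1 and 2 correlated at 0.957. In such bulk tissue, fewer cells of a type and less RNA per cell cannot be told apart. The rule chose the members on the FPKM of both genotypes, so what follows on genotype is a description.

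The stretch held members with close levels in both genotypes and, mainly in its early part, members without a single read in one of them. Of the 181 members, 13 were listed at 0 FPKM in all 3 slgols2 libraries, against 0.197% of the 16227 models of the whole table that reached 1 FPKM in a genotype. A further 2 were at 0 in all 3 WT libraries, against 0.123% of those models. Another 3 were at least 5-fold lower in slgols2 with no overlap of the genotypes (0.875% of the whole table), and 1 was at least 5-fold higher (0.468%). For 100 members the genotype means lay within 1.5-fold and the ranges overlapped (66.6% of the whole table). The other 62 lay between these classes. The shares of the whole table are those with all 6 libraries. Without slgols2 replicate 3 the counts were 13, 3, 5 for both directions of the 5-fold class together, and 68 for close means. The number at 0 in WT was 1 without slgols2 replicate 1 or without slgols2 replicate 2, and the 5-fold class held 8 members without WT replicate 3.

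**Figure D1:**
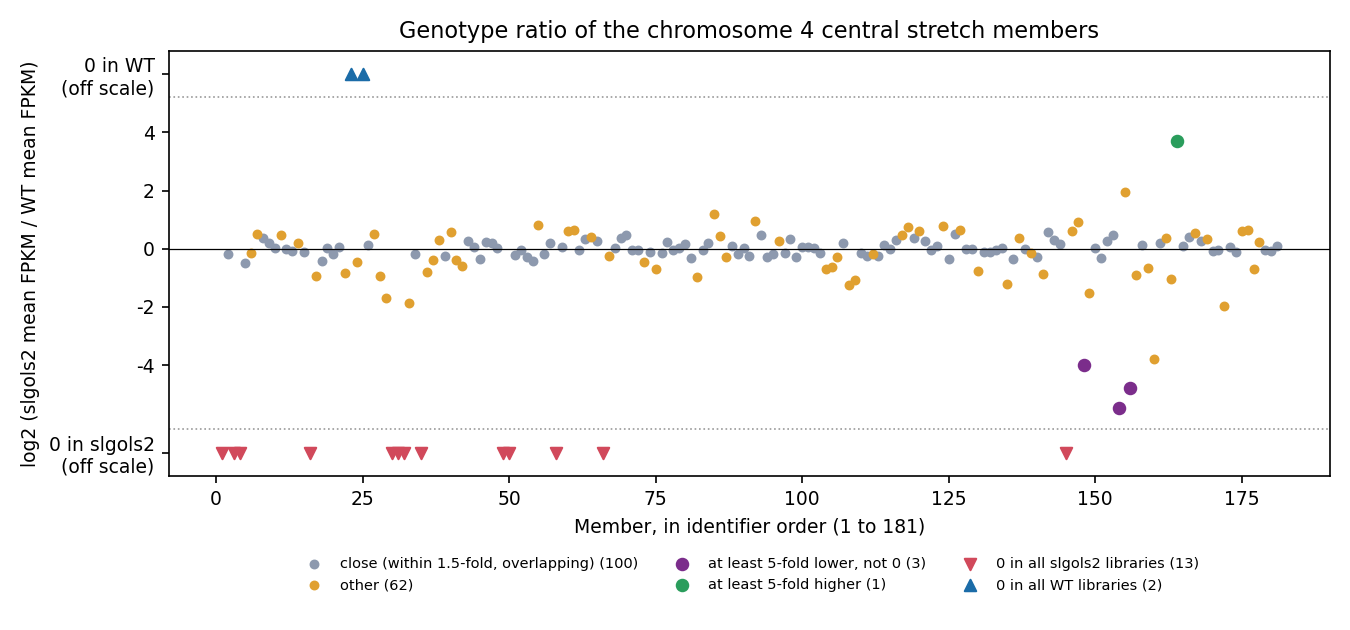
Ratio of the slgols2 mean to the WT mean FPKM (log2, vertical axis) for the 181 members in identifier order (horizontal axis), coloured by class. The 13 members at 0 in slgols2 and the 2 at 0 in WT have no finite ratio and are drawn off scale; most of the others lie near 0, with 100 in the close class.

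The members at 0 in slgols2 began with the first member of the stretch. Solyc04g018080 stood at 30.3, 27.0 and 32.2 FPKM in WT replicates 1, 2 and 3, from 621, 546 and 589 recovered reads, and had no read in any slgols2 library. Against the level that 3 reads would give in each slgols2 library, taken here as the floor, its WT mean of 29.8 ± 2.63 FPKM (SD, n = 3) was at least 195-fold higher. It was the member at 0 with the most reads, and its WT libraries differed little from each other.

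Close by, Solyc04g018120 stood at 6.24, 8.42 and 5.43 FPKM in WT (27, 36 and 21 reads). Solyc04g018130 stood at 21.7, 17.3 and 12.9 FPKM in WT (62, 49 and 33 reads). Both had no read in slgols2, and their WT means were at least 9.27-fold and 15.8-fold above the floor. Between Solyc04g018080 and this pair lay Solyc04g018110, which was among the members with the most FPKM. Its WT values were 238, 113 and 103 FPKM and its slgols2 values 56.3, 108 and 237 FPKM. The ranges of the genotypes overlapped, and the highest value in each genotype was nearly the same. Solyc04g018140, which followed, stood at 5.97, 6.83 and 2.03 FPKM in WT and 2.77, 5.07 and 2.77 FPKM in slgols2, again with overlap.

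Solyc04g024960 stood at 14.3, 30.4 and 29.5 FPKM in WT (58, 122 and 107 reads) and had no read in slgols2, at least 32.1-fold below. WT replicate 1 was the lowest of its 3 values. Its neighbour Solyc04g024940 was present throughout, at 7.49, 5.65 and 8.98 FPKM in WT and 5.30, 8.19 and 7.01 FPKM in slgols2.

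The longest unbroken run held 3 members. Solyc04g025473 stood at 2.80, 3.14 and 3.25 FPKM in WT (28, 31 and 29 reads). Solyc04g025475 stood at 1.40, 3.41 and 1.93 FPKM (17, 41 and 21 reads). Solyc04g025477 stood at 0.839, 1.19 and 1.03 FPKM (10, 14 and 11 reads), close to the minimum for a member. No slgols2 library had a read for any of these, which put their WT means at least 9.79-fold, 8.74-fold and 3.89-fold above the floor. Solyc04g025550 stood at 9.61, 7.49 and 2.07 FPKM in WT, the last from 5 reads, and at 0 in slgols2, at least 5.53-fold below. WT replicate 3 was far below the other WT libraries for this member.

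Solyc04g026300 stood at 6.67, 9.71 and 7.70 FPKM in WT (32, 46 and 33 reads). Solyc04g026315, the next member, stood at 3.09, 3.40 and 2.93 FPKM (46, 50 and 39 reads). With no read in slgols2, they were at least 12.3-fold and 15.0-fold lower there. The longest series of members with reads in both genotypes came later, between Solyc04g045300 and Solyc04g050950.

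Each of the last members at 0 in slgols2 stood alone among the members. Under the minimum, Solyc04g039930 and Solyc04g040010, before and after Solyc04g039945 by identifier, also had reads in WT alone. Solyc04g039945 stood at 1.64, 1.06 and 1.33 FPKM in WT, from 11, 7 and 8 reads, at least 2.88-fold above the floor. Solyc04g045300 stood at 2.61, 4.62 and 2.92 FPKM from 4, 7 and 4 reads, so its bound was a 1.66-fold difference. These were the members with the fewest WT reads among the 13. Solyc04g050950 stood at 3.55, 2.13 and 2.21 FPKM in WT (88, 52 and 49 reads) and was at least 20.8-fold lower in slgols2. Over all 13 members, WT replicates 1, 2 and 3 had 1030, 1021 and 949 reads, and the slgols2 libraries had 0 by the definition of the class.

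Both members at 0 in WT lay in one small part of the stretch. Solyc04g025230 stood at 1.14, 1.06 and 0.836 FPKM in slgols2 replicates 1, 2 and 3, from 6, 5 and 4 reads, at least 1.65-fold above the floor. Solyc04g025282 stood at 1.87, 1.86 and 2.24 FPKM (45, 40 and 49 reads), at least 14.9-fold above it. Replicate 3 was the lowest of the slgols2 libraries for Solyc04g025230 and the highest for Solyc04g025282. Without slgols2 replicate 1 or 2, the mean of Solyc04g025230 was under 1 FPKM and it was no longer a member.

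**Figure D2:**
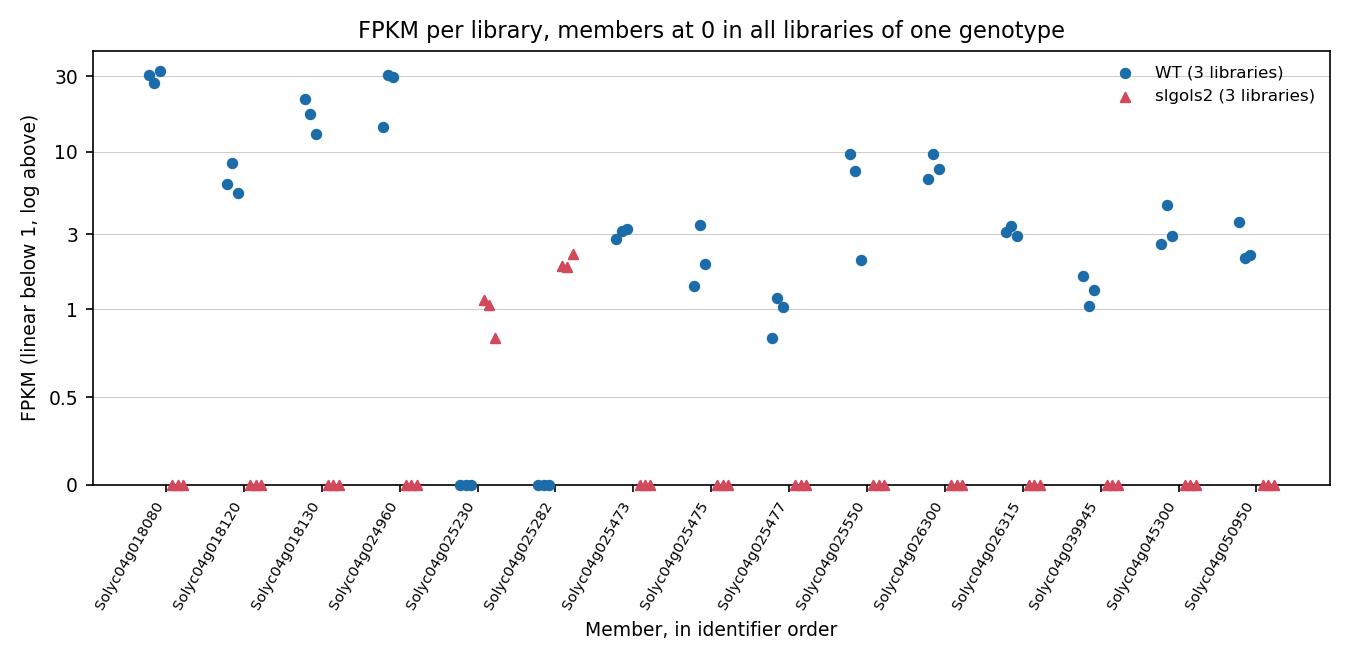
FPKM in each library (vertical axis, linear below 1 and logarithmic above) of the 15 members at 0 in all libraries of one genotype, in identifier order, with WT as circles and slgols2 as triangles. Each point is 1 library: 13 members have all slgols2 points at 0 and 2 members, Solyc04g025230 and Solyc04g025282, have all WT points at 0.

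These 15 members formed 11 runs of 1 to 3 consecutive members. The nearest members on each side of the runs were 19 different models, and all 19 had reads in all 6 libraries. This was nearly set by the choice, since only 2 members outside the runs had a 0 in any library. Models under the minimum were passed over, such as Solyc04g025240, without WT reads, between Solyc04g025230 and Solyc04g025260. Of the 19 neighbours, 11 had close genotype means and 8 did not. The means of the 19 differed by 1.01-fold to 3.63-fold. In 5 of the 19 the genotypes did not overlap. They did not in 51 of the 166 members that were not at 0 in a whole genotype. With the members at 0 included it was 36.5% of all members, against 19.7% of the whole table. Solyc04g039945, at 0 in slgols2, was flanked 5 identifier numbers away on either side. On one side was Solyc04g039940, at 2.83, 1.97 and 3.64 FPKM in WT and 2.50, 3.84 and 3.38 FPKM in slgols2. On the other was Solyc04g039950, at 4.88, 3.81 and 4.14 FPKM in WT and 4.52, 5.07 and 3.91 FPKM in slgols2. Neither neighbour separated the genotypes.

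The neighbours of the run from Solyc04g025473 to Solyc04g025477 had lower slgols2 means. Solyc04g025450 stood at 4.49, 4.51 and 3.95 FPKM in WT and 1.55, 0.976 and 1.46 FPKM in slgols2, 3.25-fold lower in mean and with no overlap. Solyc04g025530 stood at 6.51, 5.94 and 0.0556 FPKM in WT and 2.90, 0.432 and 0.119 FPKM in slgols2. Its genotypes overlapped, because WT replicate 3 was the lowest of all 6 libraries. Solyc04g025540, the next in order, had close means, at 4.203, 3.72 and 4.47 FPKM in WT and 3.83, 3.71 and 3.38 FPKM in slgols2. On the far side of Solyc04g025550, Solyc04g025650 stood at 11.5, 8.12 and 0.856 FPKM in WT and 0.862, 5.28 and 5.66 FPKM in slgols2, so the libraries of each genotype varied widely.

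The other neighbours were mostly of overlapping levels. Solyc04g025040 stood at 53.9, 20.3 and 109 FPKM in WT and 45.6, 37.4 and 13.7 FPKM in slgols2. Solyc04g026255 stood at 1.17, 0.874 and 1.25 FPKM in WT and 1.73, 1.10 and 0.488 FPKM in slgols2. Both overlapped, the former with WT libraries far apart. Solyc04g026350 stood at 12.7, 12.8 and 12.4 FPKM in WT and 8.49, 10.7 and 13.2 FPKM in slgols2, and slgols2 replicate 3 was above all WT libraries. Solyc04g050920 overlapped too, at 10.2, 12 and 7.72 FPKM in WT and 8.99, 15.9 and 8.81 FPKM in slgols2. A pair did not overlap, in opposite directions. Solyc04g045340 was lower in slgols2, at 42.4, 40.0 and 40.5 FPKM in WT and 36.1, 30.9 and 35.6 FPKM in slgols2. Solyc04g050960 was higher, at 2.83, 4.70 and 3.77 FPKM in WT and 4.88, 6.85 and 5.62 FPKM in slgols2.

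Around the members at 0 in WT, Solyc04g025260 stood at 1.56, 1.497 and 1.55 FPKM in WT and 0.983, 1.10 and 1.26 FPKM in slgols2. Solyc04g025210 stood at 2.57, 1.68 and 1.35 FPKM in WT and 0.951, 0.945 and 1.23 FPKM in slgols2. Both were lower in slgols2 with no overlap, opposite in direction to Solyc04g025230 between them. Solyc04g025290 overlapped, at 1.69, 1.84 and 1.53 FPKM in WT and 2.08, 1.81 and 1.61 FPKM in slgols2.

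**Figure D3:**
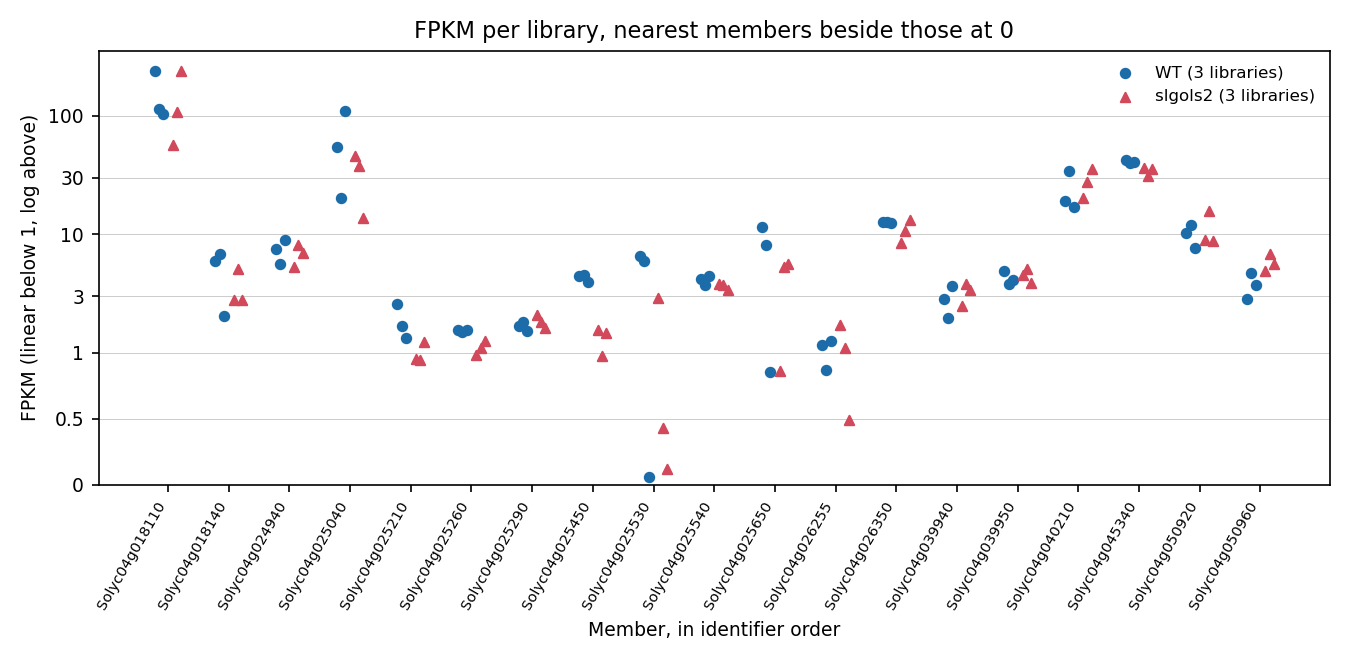
FPKM in each library (vertical axis, linear below 1 and logarithmic above) of the 19 nearest members beside those at 0 in one genotype, in identifier order, with WT as circles and slgols2 as triangles. Every library of both genotypes has a value above 0, and Solyc04g025450 shows the clearest gap among those lower in slgols2.

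The members at least 5-fold apart, without overlap and not at 0, all lay near the end of the stretch. Solyc04g051100 stood at 3.72, 6.58 and 5.53 FPKM in WT and 0.263, 0.441 and 0.289 FPKM in slgols2, 15.9-fold lower in mean. Solyc04g051240 stood at 11.5, 14.1 and 6.69 FPKM in WT and at 0.727 FPKM, from 3 reads, in slgols2 replicate 1. It was at 0 in slgols2 replicates 2 and 3, so it missed the class at 0 by the reads of 1 library.

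Solyc04g051287 stood at 1.76, 1.93 and 4.85 FPKM in WT and 0.109, 0.0812 and 0.120 FPKM in slgols2, the latter from 3, 2 and 3 reads. In the opposite direction, Solyc04g051490 stood at 0.219, 0.171 and 0.123 FPKM in WT and 1.57, 3.79 and 1.34 FPKM in slgols2. This is a long model with 118 reads over the WT libraries and 1509 over the slgols2 libraries, so its low WT level was measured well above the floor.

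The members with close means were 55.2% of the stretch, below the 66.6% of the whole table, both with all 6 libraries. The class held 68 members without slgols2 replicate 3, and 85 to 98 when any other library was left out. The share of the whole table is not given for these settings, so the lower counts are not read as a trait of the stretch. Among the 100 with close means, 73 had means within 1.2-fold, and none was at 0 in any library. Slightly more had a higher mean in slgols2 (53) than a lower one (47), and the median log2 ratio was 0.01. Solyc04g026100 had the highest FPKM of the stretch, at 343, 386 and 262 FPKM in WT and 242, 299.9 and 484 FPKM in slgols2. Its slgols2 libraries surrounded the WT range, with replicate 3 highest and replicate 1 lowest. By reads it was not the highest: it had 7402 in WT over a recovered length of 443 bases. Solyc04g045340 had 31750 over 15406 bases. Solyc04g047770 was the most even of those at high level, at 43.9, 44.3 and 49.4 FPKM in WT and 46.7, 49.8 and 58.3 FPKM in slgols2. Solyc04g050620 was at the upper limit of the class, at 51.7, 71.9 and 82.9 FPKM in WT and 82.1, 90.6 and 134 FPKM in slgols2. A single WT value exceeded the lowest slgols2 value there.

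Further members of the close class at high level were spread along the stretch. Solyc04g040180 stood at 28.7, 24.5 and 15.3 FPKM in WT and 20.6, 34.9 and 30.1 FPKM in slgols2. Solyc04g040210 stood at 19.2, 33.9 and 16.8 FPKM in WT and 20.3, 27.9 and 35.5 FPKM in slgols2. Both had a higher mean in slgols2 and WT libraries that spread over more than the difference of the means. Solyc04g050270 stood at 26.4, 28.3 and 36.2 FPKM in WT and 34.2, 30.6 and 20.1 FPKM in slgols2. Solyc04g051200 stood at 25.5, 27.7 and 17.1 FPKM in WT and 29.0, 29.2 and 25.8 FPKM in slgols2. The last member of the stretch, Solyc04g051870, also overlapped, at 6.89, 10.2 and 13.8 FPKM in WT and 12.1, 13.4 and 7.71 FPKM in slgols2.

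The remaining 62 members comprised 33 with a lower and 29 with a higher mean in slgols2, and the genotypes of 47 did not overlap. That count follows in part from the class, which takes in members within 1.5-fold only when they do not overlap. Of all members 36.5% did not overlap, against 19.7% of the whole table. Of these 47, 24 had means within 1.5-fold. In 11 of the 62 the means were at least 2-fold apart, of which 9 were lower in slgols2 and 2 higher. These were 4.97% and 1.1% of the members, against 6.26% and 3.59% of the whole table, and 5 of the 9 overlapped between genotypes. The next examples were chosen after their values were seen. Solyc04g049670 stood at 55.0, 53.6 and 55.5 FPKM in WT and 20.5, 27.6 and 20.7 FPKM in slgols2, and the WT libraries were nearly equal. Solyc04g049677, the following member, stood at 23.4, 20.8 and 27.2 FPKM in WT and 11.6, 13.1 and 9.53 FPKM in slgols2. Both were lower in every slgols2 library than in any WT library. Solyc04g049080 was higher, at 1.93, 5.01 and 1.75 FPKM in WT and 6.63, 6.803 and 6.65 FPKM in slgols2. Solyc04g051360 had means over 5-fold apart but overlapped, at 1.74, 5.06 and 0.166 FPKM in WT and 0.108, 0.161 and 0.237 FPKM in slgols2, where WT replicate 3 lay among the slgols2 values. Over all 181 members, the genotypes of 39 did not overlap with lower values in slgols2, against 10.1% of the whole table, and those of 27 did not overlap with higher values, against 9.6%. These shares include the members at 0.

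The libraries differed more in a few members of high FPKM than over the stretch as a whole. Summed over the members, WT replicates 1, 2 and 3 had 1879, 1864 and 1694 FPKM and slgols2 replicates 1, 2 and 3 had 1410, 1626 and 1937 FPKM. Without Solyc04g026100 and Solyc04g018110, the 2 members with the highest mean FPKM, the sums were 1299, 1365 and 1330 FPKM in WT and 1112, 1218 and 1216 FPKM in slgols2. Of the 166 members with reads in both genotypes, slgols2 replicate 3 had the highest of the 6 values in 44 and slgols2 replicate 1 the lowest in 48. Zeros were almost fixed by genotype: 2 members were at 0 in each WT library and 13, 14 and 15 in slgols2 replicates 1, 2 and 3. Apart from Solyc04g051240, a single member was at 0 in some libraries of a genotype and not in others. This was Solyc04g040130, at 6.20, 4.07 and 0.171 FPKM in WT and 0.198, 15.9 and 0 FPKM in slgols2. Its libraries differed widely within each genotype.

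The members at 0 in one genotype were short models. The rule did not name length, but FPKM divides reads by it, so the choice of members was not free of length. The median recovered length was 385 bases for the 13 at 0 in slgols2, from 88 to 1419, and 5932 bases for the 100 with close means. The 2 at 0 in WT had recovered lengths of 293 and 1339 bases. Of the 36 members of up to 1500 bases, 13 were at 0 in slgols2, 2 at 0 in WT and 13 had close means, and of the 145 longer members none was at 0 in a whole genotype. Outside the stretch, 3086 models of up to 1500 bases reached 1 FPKM in a genotype, and 0.421% of them were at 0 in slgols2 and 0.389% in WT. A short model reaches 1 FPKM with few reads, while a long model with more reads can stay under it. Solyc04g050220, of 4568 bases, had 76 reads in slgols2 and none in WT and was not a member. Solyc04g040010, of 2082 bases, had 62 in WT and none in slgols2. Solyc04g025240, Solyc04g050440 and Solyc04g051790, of 3325, 2903 and 2035 bases, had reads in slgols2 alone and were not members either. Shorter models under the minimum included Solyc04g025730, Solyc04g039930 and Solyc04g050690, of 848, 625 and 1204 bases, with reads in WT alone. Solyc04g050900, of 1263 bases, had reads in slgols2 alone. Low models with reads in a single genotype were thus not all short. The part of length in the zeros was not tested.

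Most models at 0 in a genotype were also first versions. Of the 13 at 0 in slgols2, 11 had version suffix 1, as had both at 0 in WT. Among the 100 with close means 14 had it, and 77 had suffix 3. In the whole stretch, 40 members were first versions, of which 11 were at 0 in slgols2. Outside it, 0.394% of 2795 first-version models were.

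**Figure D4:**
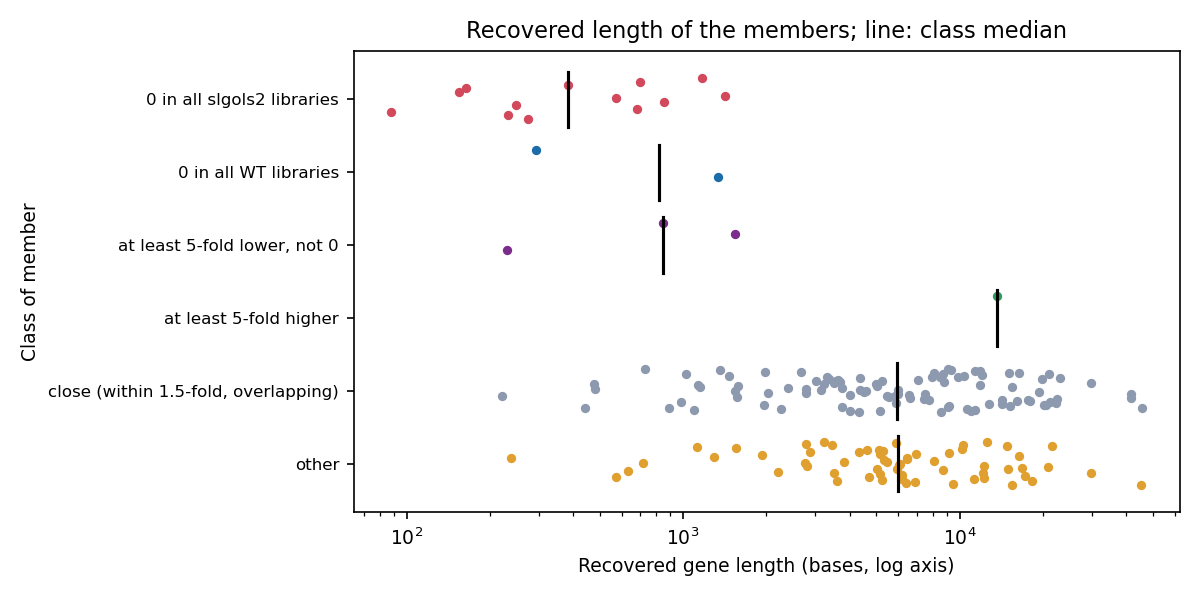
Recovered gene length in bases (horizontal axis, logarithmic) of each of the 181 members, by class (vertical axis), with a black line at the class median. The 13 members at 0 in slgols2 have a median of 385 bases and none exceeds 1419, whereas the close class has a median of 5932.

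The range also held 447 models under the minimum, apart from the excepted loci, and 312 of these had no read in any library. Of the 95 with at least 3 reads over the libraries of a genotype, 13 had reads in WT and none in slgols2, and 8 the reverse. These were 13.7% and 8.42%, against 4.47% and 3.61% of such low models outside the range. At 10 reads or more, 4 had reads in WT alone and 5 in slgols2 alone, of 68 models. These were 5.88% and 7.35%, against 1.3% and 0.842% of such models outside the range. The same identifier numbers on other chromosomes were also compared. At 3 reads, 0% to 10.8% had reads in WT alone and 1.98% to 13.9% in slgols2 alone. In slgols2 alone, chromosomes 1, 5, 8 and 10 were above the 8.42% of the stretch. At 10 reads the highest shares there were 3.7% and 4.88%. The following were chosen after their values were seen. Solyc04g040010 had 11, 24 and 27 reads in WT and none in slgols2. Solyc04g025240 had 40, 32 and 18 reads in slgols2 replicates 1, 2 and 3 and none in WT. By identifier it lies between Solyc04g025230 and Solyc04g025282, the members at 0 in WT.

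At the minimum of 1 FPKM, the members just inside were Solyc04g025230, with a slgols2 mean of 1.01 FPKM and a WT mean of 0, and Solyc04g049226, with 1.01 and 0.724 FPKM. Just outside were Solyc04g025770, with means of 0.656 FPKM in WT and 0.989 FPKM in slgols2, and Solyc04g026270, with 0.942 and 0.433 FPKM. The excepted Solyc04g040190 was listed at 0 in all 6 libraries. Solyc04g050930, also excepted, had a WT mean of 8.90 ± 1.68 FPKM and a slgols2 mean of 8.71 ± 4.97 FPKM (SD, n = 3).

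The members at 0 were concentrated in the early part of the stretch. When members more than 1000 identifier numbers apart were taken as the borders of groups, the first group, from Solyc04g018080 to Solyc04g018140, held 5 members with 3 at 0 in slgols2. The next, from Solyc04g024340 to Solyc04g026380, held 48 members with 7 at 0 in slgols2 and both of those at 0 in WT. These first 53 members thus held 10 of the 13. This placing holds for members only. The members at 0 were all of up to 1500 bases, and where other members of such length lay was not compared. Of the models under the minimum with 10 reads or more in one genotype alone, Solyc04g025240 and Solyc04g025730 lay here by identifier. The others lay later, among them Solyc04g040010, with 62 reads in WT, and Solyc04g051790, with 93 in slgols2. The last group, from Solyc04g048900 to Solyc04g051870, held 101 members with 1 at 0 in slgols2, and it held all 4 members of the 5-fold class.

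On the rest of chromosome 4, no model of the 417 that reached 1 FPKM before the stretch was at 0 in a whole genotype. After the stretch, 2 of 736 were at 0 in slgols2 and 1 in WT. Chromosome 4 thus held 15 of the 32 models of the whole table at 0 in slgols2. The same identifier numbers were taken on the other chromosomes, where they need not mark the same part of a chromosome. There, 7 of 1957 models were at 0 in slgols2 (0.358%) and 8 in WT (0.409%). On chromosome 5 these numbers held 259 models, of which none was at 0 in slgols2 and 4 were at 0 in WT (1.54%). The shares in the stretch were 7.18% and 1.1%. The stretch was chosen with these zeros known, so the difference was not tested.

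**Figure D5:**
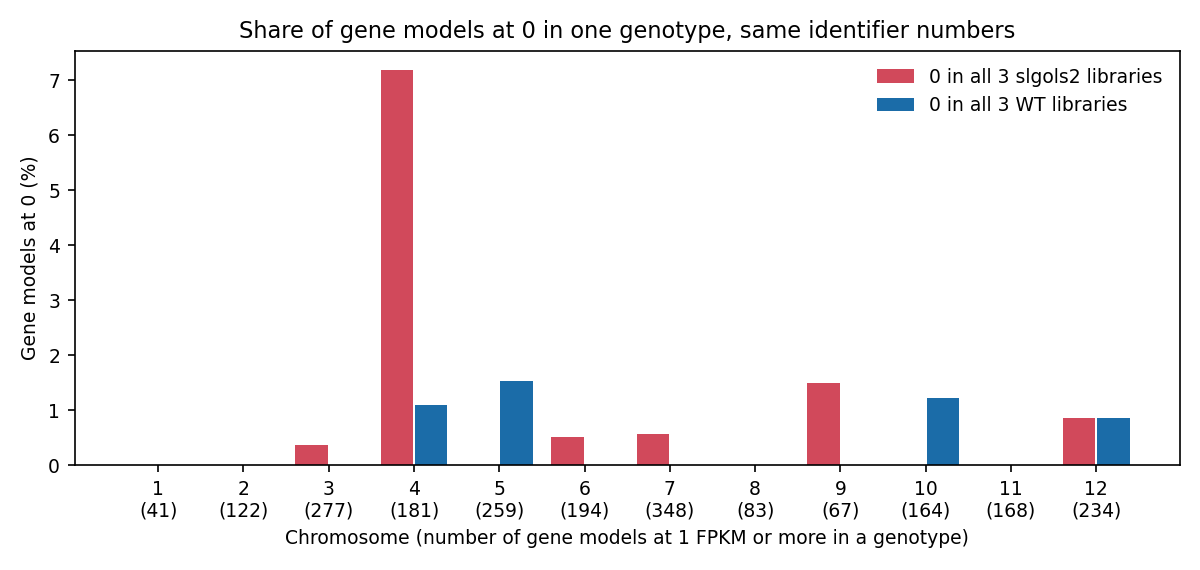
Percentage of gene models at 0 in all 3 libraries of slgols2 or of WT (vertical axis) among those of at least 1 FPKM in a genotype, for the same identifier numbers on chromosomes 1 to 12 (number of models in brackets). The bar for slgols2 on chromosome 4 stands at 7.18%, and the highest bar for WT is on chromosome 5, at 1.54%.

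A fit over the whole table gave calls for few members. Limma called 11 of the 173 members that had a mean of at least 1 FPKM over the 6 libraries, all lower in slgols2, at an adjusted p of 0.05. Over the whole table it called 0.159% of 15695 models lower and 0.0701% higher. The calls comprised 9 members at 0 in slgols2 and 2 of the 5-fold class, and no member with close means. Both members at 0 in WT had a mean under 1 FPKM over the 6 libraries and were not tested. Since the same FPKM values chose the members, nothing is read from this count. With limma-voom on the recovered reads it was 1, the only model called in the whole table. With sample quality weights it was 34, and 2028 of 15695 models were called in the whole table. Leaving out WT replicate 2 gave 5 calls, WT replicate 1 gave 6, and slgols2 replicate 1 or 2 gave 7. In the whole table these fits called 9, 9, 14 and 21 models. With no filter on low values, 15 of the 181 members were called, 13 lower in slgols2 and 2 higher. In the whole table that setting called 39 of 25084 models lower and 16 higher.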

How the data were processed

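Gene models were taken from 1 deposited table of FPKM values with a column for each of 3 WT and 3 slgols2 libraries, grouped by their titles. Per the file headers, the authors deposited FPKM. Per the submitters' processing notes, the tools included HISAT2 2.1.0 and DESeq 1.38.3, with no role stated. Which program counted the reads, on which build and annotation and with which strand setting, is not given in the sources used here, so reads of overlapping, antisense or near-identical models may not have been told apart.

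Depth, gene length and reads were recovered from the steps between low FPKM values. Of 1677 low models, 96.4% gave a whole length within 0.01 bases. Whole reads in all libraries, within 0.001 reads or a share of 3e-07 of the read number, followed for all 15695 models with a mean of at least 1 FPKM. Lengths and reads are the smallest that gave whole numbers. The lengths of members ran from 88 to 45700 bases, and whether they include introns is not given in the sources used here. A ranking by FPKM is thus by reads per recovered base. Floors of 3 reads per library cover counting error only.

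Models of at least 1 FPKM in a genotype were classed by the definitions in the text. Limma 3.58.1 in R 4.3.3 was fitted to log2(FPKM + 1) of models with a mean of at least 1 FPKM over the 6 libraries, with genotype as the only term, an intensity trend, two-sided, with Benjamini-Hochberg adjustment over all models. The recovery and the fit were tested on simulated data. The members, classes and named models were chosen with earlier results of these data known. Named by rule were all members at 0 in a genotype, up to 8 of the 5-fold class and the 8 close members with the highest mean FPKM. Neighbours of those at 0, the first and last member, those at the minimum and the excepted loci were also named by rule. Sequences were not used here.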

Additional observations from a re-analysis of the deposited data

How the results depend on the processing

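The number of members at 0 in slgols2 and the number with close means stayed within 1.5 times of 13 and 100 under every alternative run on them. The number at 0 in WT was 4 at a member minimum of 0.5 FPKM, 0 at 2 FPKM, and 1 to 3 when each library was left out. The 5-fold class, of 4 members, held 3 to 8 when each library was left out. The members called by limma, 11 in the full fit, were 3 at a mean of at least 5 FPKM, which tests fewer models. They were 34 with sample quality weights, 1 with limma-voom on recovered reads, and 5 to 12 when each library was left out. Over the whole table the calls were 36 in the full fit and 15, 2028 and 1 in these settings, in that order. They were 9 to 273 when each library was left out. With the replicate number as a block 1 member was called. Libraries with the same number did not deviate together, since their deviations from the group means correlated at -0.15, 0.0888 and -0.165 for numbers 1, 2 and 3, and 1 pair of the 3 correlated best with its own number. The cause of the other changes was not tested. At this depth the zeros of the shortest members rest on few reads, down to 15 over the 3 WT libraries.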
